A study of Mus musculus with 6 samples.

Results

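The MHC class I family is described here by 10 genes, 9 heavy chain genes and B2m, measured in cells of the mouse heart. They were looked up by symbol among 55487 gene identifiers (H2-M2, H2-M3, H2-K1, H2-D1, H2-Q4, H2-Q6, H2-Q7, H2-T22, H2-T23 and B2m). All 10 were among the 15707 genes that passed the filter on low counts. H2-M2 was chosen by its KO against WT difference in these same counts, so that difference is given as a description with no test. The other 9 members serve as the family it is set against. H2-M2 averaged 14.7 CPM in KO pools and 2.39 CPM in WT pools, a ratio of 6.14. The other 9 members had positive log2 fold changes of 0.15 to 0.61, KO over WT, and none of the 9 passed the test over all genes.

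A class I molecule on the cell surface is a heavy chain bound to beta-2-microglobulin, the product of B2m, with a short peptide held in its groove. H2-K1 and H2-D1 encode the classical heavy chains, which nearly all nucleated cells carry and which show peptides of cellular proteins to CD8 T cells. The nonclassical heavy chains of the Q, T and M regions vary less between strains, are often restricted to certain tissues, and serve more specialised ligands or receptors. Macrophages and dendritic cells carry abundant class I molecules, and dendritic cells also use them to present material they have taken up.

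The series asked how loss of the epidermal growth factor receptor in myeloid cells changes gene expression in the heart's Cd11b+ cells. There were 3 KO pools, labelled Egfr mKO and EGFR -/- (myeloid-specific), and 3 WT pools, labelled Egfr f/f, all from C57BL/6 mice. Each pool combined 5 to 6 hearts, and the cells other than myocytes were enriched with beads against Cd11b, the integrin encoded by Itgam. The sources used here do not name the Cre driver, the age of the mice or the purity of the cells. The f/f label means that the WT mice also carried floxed Egfr alleles.

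Reads assigned to genes numbered 25199667 to 27485129 in the KO pools and 17780707 to 27104205 in the WT pools. Levels are CPM, that is counts relative to library size after TMM scaling. Egfr, the targeted gene, was at 18.5, 15.95 and 17.4 CPM in KO pools 1 to 3, against 54.7, 43.0 and 44.7 CPM in WT pools 1 to 3 (log2 fold change -1.46, SE 0.13, edgeR adjusted p = 0.0449). Itgam was at 120 to 176 CPM in KO pools and 84.4 to 141 CPM in WT pools, and the leukocyte gene Ptprc at 890 to 1038 CPM and 565 to 935 CPM. Myeloid lysozyme Lyz2 was at 17.4 to 19.3 CPM in KO pools and 4074 to 6700 CPM in WT pools. Y-linked Ddx3y was at 136 CPM in KO pool 1 and 138 CPM in WT pool 1, and below 1 CPM in the other 4 pools. Xist, expressed from the inactive X of females, was at 0.153 CPM in KO pool 1 and 0.269 CPM in WT pool 1. In the other 4 pools it was at 344 to 602 CPM. The pools numbered 1 thus had the pattern of male RNA, and the other 4 that of female RNA. Red cell RNA was high in WT pool 1, where beta-globin Hbb-bs reached 1103 CPM, against at most 53.4 CPM in KO pools and 85.8 CPM in the other WT pools. Markers of T cells were highest in WT pool 2, with a mean log2 CPM of 5.95, against 2.15 to 4.63 in KO pools and at most 1.40 in the other WT pools.

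The stretch just before the start of a class I gene carries the elements through which these genes are known to be switched on. These are a kappaB site bound by Rel proteins, an element bound by interferon regulatory factors (IRF), and the X2 and Y boxes of the module that recruits the transactivator Nlrc5. The sequences below show how far H2-M2 carries these elements compared with its neighbour H2-M3, with the classical gene H2-K1 and with B2m. Each is the 250 bases before the RefSeq transcription start in GRCm38.p6, read 5′ to 3′ on the gene's own strand. Capitals mark matches on either strand to GGGNNTTCC (kappaB-like), TTTCNNTT (IRF-like), TGNTGAC (X2-like) and ATTGG (Y-like), where N is any base. The letters of these motifs were chosen with class I promoters in view. H2-M2 lies at chr17:37483555-37483804 on the minus strand, H2-M3 at chr17:37269984-37270233 on the plus strand, H2-K1 at chr17:34000348-34000597 on the minus strand and B2m at chr2:122147437-122147686 on the plus strand.
H2-M2: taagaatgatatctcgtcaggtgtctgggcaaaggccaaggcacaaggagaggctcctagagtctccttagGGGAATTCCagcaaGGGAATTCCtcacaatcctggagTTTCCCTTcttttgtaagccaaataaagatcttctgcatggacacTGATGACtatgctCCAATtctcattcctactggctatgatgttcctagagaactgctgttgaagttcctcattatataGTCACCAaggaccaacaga
H2-M3: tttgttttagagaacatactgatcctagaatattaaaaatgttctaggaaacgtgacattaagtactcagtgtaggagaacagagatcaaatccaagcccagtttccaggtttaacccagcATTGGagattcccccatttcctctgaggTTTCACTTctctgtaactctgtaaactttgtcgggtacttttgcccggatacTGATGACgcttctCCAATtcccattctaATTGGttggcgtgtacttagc
H2-K1: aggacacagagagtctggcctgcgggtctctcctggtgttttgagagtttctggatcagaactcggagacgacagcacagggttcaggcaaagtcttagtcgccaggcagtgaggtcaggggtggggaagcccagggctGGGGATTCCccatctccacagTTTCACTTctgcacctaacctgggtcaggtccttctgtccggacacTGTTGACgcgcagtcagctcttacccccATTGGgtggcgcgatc
B2m: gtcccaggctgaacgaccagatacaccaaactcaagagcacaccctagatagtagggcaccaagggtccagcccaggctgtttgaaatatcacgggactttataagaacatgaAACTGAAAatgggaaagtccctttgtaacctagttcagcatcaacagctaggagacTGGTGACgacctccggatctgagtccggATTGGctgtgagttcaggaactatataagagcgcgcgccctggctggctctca

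H2-M2 held all 4 motifs. It had a pair of kappaB-like matches of the same letters, GGGAATTCC, which began 179 and 165 bases before the start. An IRF-like match, TTTCCCTT, began at 142, an X2-like match, TGATGAC, at 97 and a Y-like match on the other strand at 84. The kappaB-like match of H2-K1 read GGGGATTCC and began at 111, and its IRF-like match TTTCACTT began at 90. H2-D1, H2-Q4, H2-Q6 and H2-Q7 also held all 4, so 6 of the 10 members did. In H2-M3, H2-T22, H2-T23 and B2m the same 250 bases held the IRF-like, X2-like and Y-like letters but not GGGNNTTCC. TTTCACTT was the IRF-like match of 7 members (H2-M3, H2-K1, H2-D1, H2-Q4, H2-Q6, H2-Q7 and H2-T22). In H2-T23 the X2-like match stood on the other strand, 19 bases before the start.

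Over 27025 RefSeq promoters of the same length, GGGNNTTCC occurred in 4.85%, TTTCNNTT in 21.6%, TGNTGAC in 11.7% and ATTGG in 34.5%. All 4 together occurred in 22 promoters, or 0.081%, and 6 of those 22 belonged to members. A match is a run of letters and not a measured binding site.

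**Figure D1:**
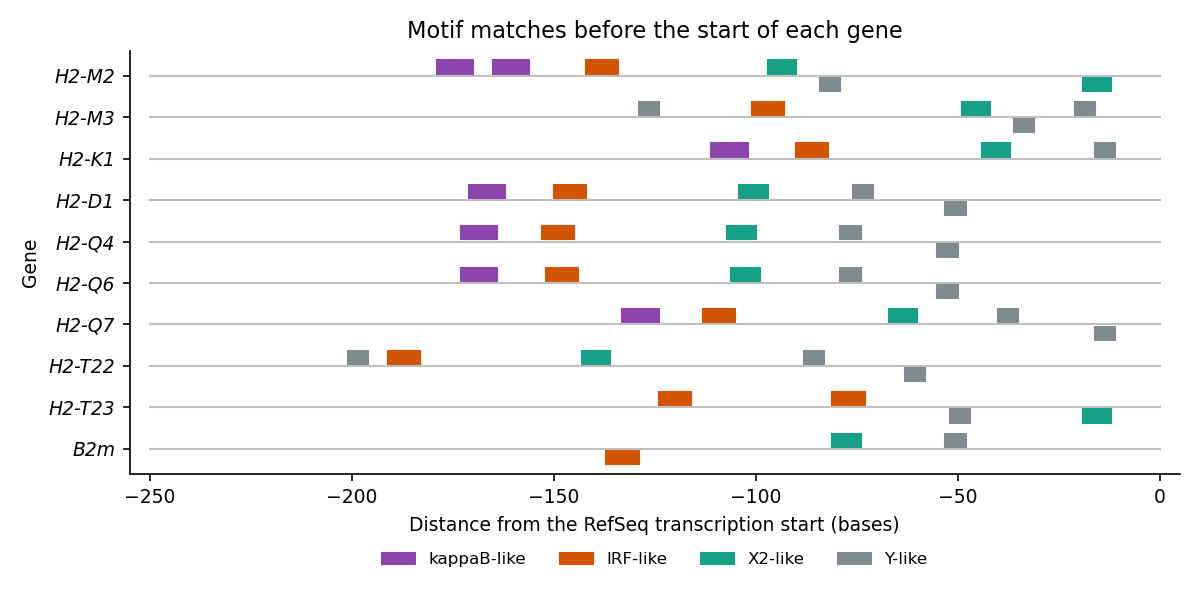
Motif matches in the 250 bases before the RefSeq start of each gene, drawn by distance from the start in bases. Boxes above a line match the gene's own strand and boxes below it the other strand. The 2 kappaB-like matches of H2-M2 lie 179 to 157 bases before the start, and the lines of H2-M3, H2-T22, H2-T23 and B2m carry none.

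H2-M2 (ENSMUSG00000016283; chr17:37480851-37483552, minus strand, protein coding) was counted 287, 359 and 489 times in KO pools 1 to 3, against 73, 31 and 59 times in WT pools 1 to 3. Its levels were 10.96, 14.1 and 19.0 CPM in the KO pools, against 2.81, 1.62 and 2.75 CPM in the WT pools. All KO pools were therefore above all WT pools, and the lowest KO pool was still above the highest WT pool by a wide margin. The means were 14.7 ± 4.04 CPM in KO and 2.39 ± 0.67 CPM in WT (SD, n = 3 each), a ratio of 6.14. The fitted log2 fold change was 2.61 (SE 0.30). Relative spread was much the same within both genotypes, with a coefficient of variation of 27.5% in KO and 28.1% in WT. A count of 3 reads, the floor set here for a level above 0, correspond to 0.115 to 0.156 CPM, so H2-M2 was counted well above that floor in every pool. In bulk RNA, a gene expressed by more cells and a gene with more RNA per cell cannot be told apart.

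H2-K1 (ENSMUSG00000061232; chr17:33996017-34000347, minus strand), a classical heavy chain gene, was at 2120, 2020 and 2178 CPM in KO pools and 1809, 1161 and 1603 CPM in WT pools. All KO pools lay above all WT pools, by a small step over WT pool 1. The means were 2106 ± 79.9 CPM in KO and 1525 ± 331 CPM in WT (SD, n = 3 each), with a log2 fold change of 0.47 in edgeR (SE 0.21, adjusted p = 0.343). H2-D1 (ENSMUSG00000073411; chr17:35262730-35267499, plus strand), the other classical gene, was at 3500, 3017 and 3445 CPM in KO pools and 3025, 1936 and 2426 CPM in WT pools. KO pool 2 and WT pool 1 nearly coincided, so the groups overlapped. The H2-D1 log2 fold change was 0.43 in edgeR (SE 0.23, adjusted p = 0.414). WT pool 2, the shallowest library, was the lowest of the 6 for both genes, and without it the log2 fold changes were 0.30 for H2-K1 and 0.28 for H2-D1.

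B2m (ENSMUSG00000060802; chr2:122147686-122153083, plus strand), the light chain shared by all these molecules, was at 1728, 1698 and 1917 CPM in KO pools and 1480, 1141 and 1332 CPM in WT pools. The KO pools lay above the WT pools without overlap. The means were 1781 ± 119 CPM in KO and 1318 ± 170.1 CPM in WT (SD, n = 3 each), with a log2 fold change of 0.43 in edgeR (SE 0.18, adjusted p = 0.300).

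Among the nonclassical genes, H2-M3 (ENSMUSG00000016206; chr17:37270220-37274484, plus strand) encodes the heavy chain that presents peptides beginning with formyl-methionine, as in bacterial and mitochondrial proteins. It was at 58.8, 71.7 and 55.9 CPM in KO pools and 50.4, 33.6 and 45.4 CPM in WT pools. The groups did not overlap, and the log2 fold change was 0.53 in edgeR (SE 0.17, adjusted p = 0.238). H2-M3 is the nearest other member to H2-M2 on the chromosome, yet its 2 genotype means, 62.1 and 43.1 CPM in KO and WT, stood in a much smaller ratio than those of H2-M2.

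H2-Q7 (ENSMUSG00000060550; chr17:35439155-35443773, plus strand) and H2-Q6 (ENSMUSG00000073409; chr17:35424850-35430055, plus strand) are closely related genes of the Qa-2 group, which can be anchored in the membrane by a lipid. H2-Q7 was at 132, 119 and 156 CPM in KO pools and 103, 71.8 and 92.2 CPM in WT pools. These groups did not overlap, and the log2 fold change of 0.61 in edgeR (SE 0.16, adjusted p = 0.202) was the highest among the 9 members other than H2-M2. H2-Q6 was at 217, 223 and 280.2 CPM in KO pools and 195, 128 and 203 CPM in WT pools. It was again without overlap, with a log2 fold change of 0.45 in edgeR (SE 0.20, adjusted p = 0.330), or 0.26 without WT pool 2. H2-Q4 (ENSMUSG00000035929; chr17:35379617-35385290, plus strand), a further gene of the Q region, was at 341, 287 and 425 CPM in KO pools and 345, 255 and 352 CPM in WT pools. The H2-Q4 values of the genotypes were interleaved, with a log2 fold change of 0.15 in edgeR (SE 0.19, adjusted p = 0.766) that turned to -0.022 when KO pool 3 was left out and was 0.0036 without WT pool 2.

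H2-T23 (ENSMUSG00000067212; chr17:36029773-36032855, minus strand) encodes the Qa-1 heavy chain, the ligand of an inhibitory receptor on natural killer cells. It was at 321, 328 and 356 CPM in KO pools and 306, 222 and 260.4 CPM in WT pools, with a log2 fold change of 0.35 in edgeR (SE 0.15, adjusted p = 0.310). H2-T22 (ENSMUSG00000056116; chr17:36037128-36042747, minus strand), a heavy chain recognised by some gamma-delta T cells, was at 72.7, 73.1 and 77.1 CPM in KO pools and 56.7, 57.8 and 71.7 CPM in WT pools. Both genes were higher in every KO pool than in any WT pool, H2-T22 by a narrow margin over WT pool 3. The H2-T22 log2 fold change was 0.26 in edgeR (SE 0.12, adjusted p = 0.352).

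**Figure D2:**
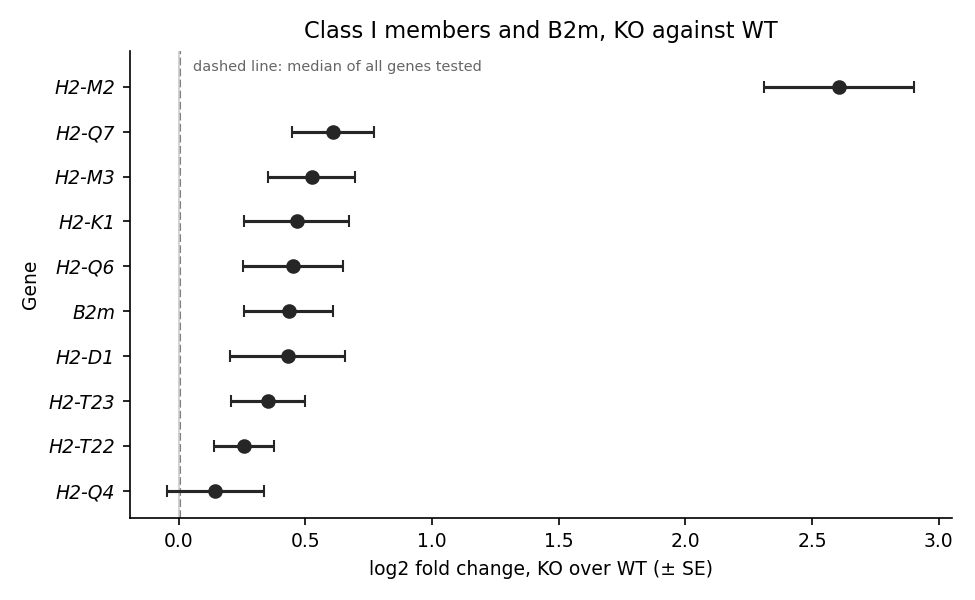
Fitted log2 fold change of each gene, KO over WT, with its standard error as bars. H2-M2 stands at 2.61, and the other 9 members lie between 0.15 (H2-Q4) and 0.61 (H2-Q7), to the right of the dashed line that marks the median of all genes tested (0.0072).

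None of the 9 members other than H2-M2 passed an adjusted p of 0.05 in edgeR. The background was as low, since 2 of 15707 genes (0.0127%), Egfr and Lyz2, passed. At an unadjusted p under 0.05 there were 4 of the 9 (H2-M3, H2-Q7, H2-T23 and B2m), beside 15.3% of all genes. All 9 log2 fold changes were positive, with a median of 0.43, while the median of all genes was 0.0072 and 7979 of the 15707 were positive. Every KO pool was above every WT pool for 7 of the 9, beside 9.59% of all genes. The 9 members are read together in the same 6 pools and do not vary independently.

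H2-Q7 was the only one of the 9 that passed in any alternative. It was called higher in KO by DESeq2 (0.60, adjusted p = 0.0336), in edgeR with no filter on low counts (0.61, adjusted p = 0.0452) and in edgeR without WT pool 1 (0.73, adjusted p = 0.0409). The shares of all genes called higher in these fits were 1.16%, 0.479% and 2.33%. Over the 15 alternatives its edgeR, DESeq2 or limma-voom log2 fold change lay between 0.47 and 0.73. Without WT pool 1, 8 of the 9 members were higher in each KO pool than in each WT pool, beside 21.1% of all genes.

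The pools with and without Ddx3y RNA were also set apart. KO pool 1 was above WT pool 1, the pools with Ddx3y RNA, for 9 of the 10 members, and both other KO pools were above both other WT pools for 9 of the 10. The exception was H2-Q4 each time. The share of all genes doing so was not computed, so these counts are a description and not a result about the members. They also include H2-M2, which was chosen by its KO against WT difference. The log2 ratio of H2-M2, KO over WT, was 1.97 in the first pair and 2.92 in the other 4 pools, and the median of the other 9 members was 0.22 and 0.57. With Ddx3y RNA as a term beside genotype in edgeR, a fit chosen after seeing the data, none of the 9 members passed (H2-Q7 0.62, adjusted p = 0.175) and H2-M2 was at 2.59.

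Set against its own family within each pool, H2-M2 differed between the genotypes by nearly as much as it did alone. Its log2 CPM minus the mean log2 CPM of the other 9 was -5.11, -4.71 and -4.46 in KO pools 1 to 3, and -6.84, -7.14 and -6.79 in WT pools 1 to 3. The genotypes did not overlap, and the means were -4.76 ± 0.33 in KO and -6.93 ± 0.19 in WT (SD, n = 3 each), 2.16 apart. On the same log2 CPM scale (prior count 2), H2-M2 alone differed by 2.58 and the mean of the other 9 by 0.42. The mean of the other 9 was 8.58, 8.54 and 8.72 in KO pools and 8.38, 7.91 and 8.29 in WT pools.

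To compare levels between genes, CPM was divided by the length of each gene's merged exons in kb. B2m stood highest, with 2071 ± 138 CPM per kb in KO and 1532 ± 198 CPM per kb in WT (SD, n = 3 each, as below). H2-D1 followed with 1288 ± 103 in KO and 955 ± 212 in WT, and H2-K1 with 717 ± 27.2 in KO and 519 ± 113 in WT. The nonclassical genes were all lower. H2-Q4 was at 135 ± 26.7 CPM per kb in KO and 122 ± 20.8 in WT, H2-T23 at 116 ± 6.40 and 90.9 ± 14.6, and H2-Q6 at 115 ± 16.7 and 84.2 ± 19.7. Lower still were H2-M3 with 43.2 ± 5.86 CPM per kb in KO and 30.0 ± 6.01 in WT, H2-Q7 with 31.9 ± 4.35 and 20.9 ± 3.74, and H2-T22 with 21.8 ± 0.72 and 18.2 ± 2.44. H2-M2 was the lowest member in every pool, with 7.07, 9.09 and 12.2 CPM per kb in KO pools and 1.81, 1.04 and 1.77 CPM per kb in WT pools.

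**Figure D3:**
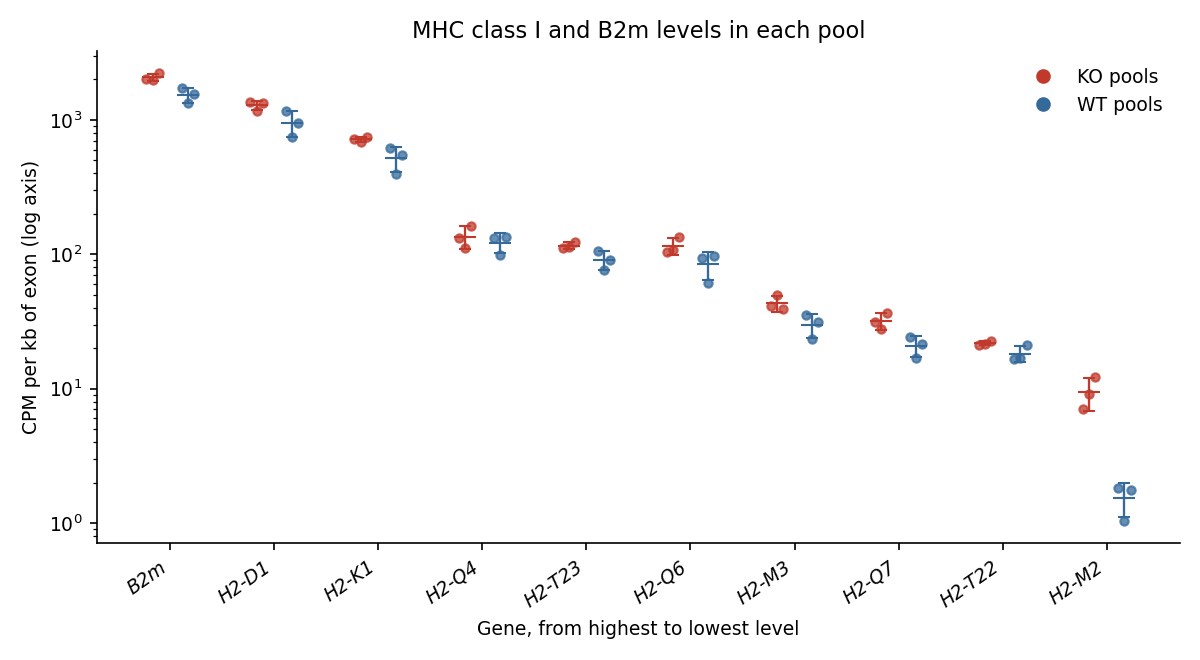
Level of each gene in each pool as CPM per kb of merged exon on a log axis, with KO pools left and WT pools right. Points are pools, and bars are the mean and SD of 3 pools. B2m is highest, with means of 2071 in KO and 1532 in WT, and H2-M2 lowest, with 9.47 in KO and 1.54 in WT.

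Neighbours in this order were compared within the 6 pools by a two-sided exact sign-flip permutation test, adjusted over the 9 pairs, in which the smallest possible p is 0.0313. The order itself was set from the mean over these same 6 pools. A pair that keeps it in all 6 always reaches that smallest p, so the p-values only describe how steady the order was. Of the 9 pairs, 6 kept their order in all 6 pools (adjusted p = 0.0469 in the exact test for each). Among them, B2m exceeded H2-D1 by 0.69 on the log2 scale, H2-D1 exceeded H2-K1 by 0.86, and H2-K1 exceeded H2-Q4 by 2.25. H2-T22 exceeded H2-M2 by 2.42 ± 1.34 (SD over 6 pools), but H2-M2 was chosen from these counts, so no test is read from this pair. The adjustment over the 9 pairs still included it, so the adjusted p of the other pairs depends on it. No pair is therefore called different by these values. The order of the other 3 pairs did not hold in all pools. H2-Q4 was above H2-T23 in 5 of 6 pools (0.31 on the log2 scale, adjusted p = 0.0703 in the exact test), H2-Q7 above H2-T22 in 5 of 6 (0.37, adjusted p = 0.0703), and H2-T23 above H2-Q6 in 4 of 6 (0.07, adjusted p = 0.375).

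Members differ in how much of their sequence is theirs alone, which bears on these levels because a read with more than 1 possible place was counted to no gene. All 75-base windows of H2-M2, H2-M3 and B2m occurred in no other gene of the GENCODE M21 transcripts. The share of unique windows was 95.9% for H2-K1, 94.1% for H2-D1, 93.5% for H2-T23, 79.7% for H2-Q7, 78.9% for H2-Q6, 78.7% for H2-Q4 and 56.1% for H2-T22. Windows were matched on either strand, so shared ones can include overlaps with antisense genes, where a read may still have 1 place. H2-T22 shared 25.2% of its windows with the antisense gene A930015D03Rik and 15.7% with H2-T10. H2-Q4 shared 13.4% with the antisense gene Gm11131. The levels of the Q genes and of H2-T22 are uncertain, and these shares do not measure by how much. With unique positions only, H2-Q6 moved above H2-T23 and H2-T22 above H2-Q7. With the longest coding transcript as length, H2-T23 moved above H2-Q4, and H2-Q7 and H2-T22 moved above H2-M3. With no length, H2-D1 and H2-K1 stood above B2m in all 6 pools and H2-T22 above H2-M3. H2-M2 was lowest under each of these settings. H2-Q4 overlaps the antisense gene Gm11131 (50 to 111 reads), and H2-T22 and H2-T23 overlap A930015D03Rik (11 to 24 reads). Whether counting used the strand is not given in the sources used here.

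The proportions within the class I family are given as values, with no test of their difference. H2-K1 and H2-D1 together made up 80.9 ± 1.34% of the summed heavy chain level per kb in KO and 79.9 ± 1.30% in WT (SD, n = 3 each). The summed heavy chains stood to B2m as 1.20 ± 0.05 in KO and 1.19 ± 0.10 in WT, and H2-D1 to H2-K1 as 1.80 ± 0.09 and 1.84 ± 0.10. The counts of H2-Q7 stood to those of H2-Q6 as 0.57 ± 0.04 in KO and 0.51 ± 0.05 in WT. H2-M2 made up 0.280%, 0.396% and 0.469% of the heavy chain sum in KO pools, against 0.0824%, 0.0723% and 0.0939% in WT pools. Its share was thus higher in each KO pool than in any WT pool, at 0.382 ± 0.0955% in KO and 0.0829 ± 0.011% in WT. In every pool it was under 1% of this sum, which covers the heavy chain members only and leaves out other class I genes.

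Of 22 other class I and class I-like genes listed, 9 passed the filter, with a median log2 fold change of 0.24 (0.11 without KO pool 1 and 0.37 without KO pool 2), 7 positive and 0 called in edgeR, 2 of them at an unadjusted p under 0.05. Cd1d1, which presents lipids to natural killer T cells, was at 14.3 ± 1.96 CPM in KO and 10.33 ± 0.93 CPM in WT (log2 fold change 0.47, SE 0.16, edgeR adjusted p = 0.249). H2-T24 had a log2 fold change of 0.35 (SE 0.14), the Fc receptor gene Fcgrt 0.39 (SE 0.20) and Mr1, which presents microbial vitamin metabolites, -0.42 (SE 0.20). Of the 13 that missed the filter, 8 had no read in any pool, among them H2-M1, H2-M10.1, H2-M10.2, H2-M10.3, H2-M10.4 and H2-M11 of the M region. The list is not complete, since H2-Q5 and H2-K2 were tested but are not on it. H2-Q5 had 0.63 (SE 0.23), with all KO pools above all WT pools, and H2-K2 had 0.23 (SE 0.19), with overlap.

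H2-Q2 and H2-Q10 varied by pool rather than by genotype. H2-Q2 was counted 64, 6 and 110 times in KO pools and 3, 253 and 0 times in WT pools. The pools with most H2-Q2 (WT pool 2, KO pool 3 and KO pool 1) were also those with the highest mean of the 8 T cell markers, and whether the T cells carried it was not tested. H2-Q10 was at 54.0, 10.7 and 13.5 CPM in KO pools and 30.2, 16.2 and 10.43 CPM in WT pools.

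The genes that supply class I peptides were described in lists chosen for the pathway. Of 7 genes of the immunoproteasome, its activator and peptide trimming, 6 were positive (median 0.31), 4 had an unadjusted p under 0.05 and 4 had all KO pools above all WT pools. Over all genes, for this list and those that follow, the shares were 15.3% and 9.59%, and 10.1% had all KO pools below all WT pools. None was called in edgeR. Psmb9, a catalytic subunit of the immunoproteasome, was at 58.9, 66.6 and 58.9 CPM in KO pools and 47.2, 39.1 and 43.7 CPM in WT pools, with no overlap (log2 fold change 0.50, SE 0.11, edgeR adjusted p = 0.181). Its partner subunit Psmb8 had a log2 fold change of 0.32 (SE 0.12), and the activator subunits Psme1 and Psme2 had 0.33 (SE 0.12) and 0.31 (SE 0.12).

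Of 7 genes of the peptide loading complex, all were positive (median 0.25, and 0.15 without WT pool 2), 1 had an unadjusted p under 0.05 and 0 were called in edgeR. The peptide transporter gene Tap1 was at 181, 182 and 183 CPM in KO pools and 156, 133 and 170 CPM in WT pools (log2 fold change 0.25, SE 0.12). The chaperone genes Pdia3 and Calr, which hold the heavy chain during loading, had 0.35 (SE 0.14) and 0.38 (SE 0.18), and Canx 0.30 (SE 0.14).

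Among 15 transcription factor genes known to act on class I promoters, 11 were positive, the median was 0.10 and 0 were called in edgeR. Nlrc5, the class I transactivator that works through the X and Y boxes, was at 87.7, 91.2 and 87.9 CPM in KO pools and 73.3, 59.9 and 63.4 CPM in WT pools. The genotypes were well separated, with a log2 fold change of 0.44 in edgeR (SE 0.11, adjusted p = 0.192). Irf2 had 0.30 (SE 0.16) and the Y box subunit gene Nfya 0.26 (SE 0.14). DESeq2 called Psmb9 (0.50, adjusted p = 0.0126) and Nlrc5 (0.43, adjusted p = 0.0243) higher in KO, and no other gene of these lists or of the receptors below. It called 1.16% of all genes higher.

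The list of class I receptors, which also holds related receptor genes such as Lilrb4a, was uneven. Of 11 listed, 9 were tested, 5 were positive (median 0.20, and -0.08 without WT pool 3), and none was called in edgeR or had an unadjusted p under 0.05. The inhibitory receptor genes Pirb and Lilrb4a, carried by myeloid cells, had log2 fold changes of 0.38 (SE 0.21) and 0.27 (SE 0.31), and Klra2 and Klra17 had 0.32 (SE 0.23) and 0.72 (SE 0.49). Without WT pool 1, edgeR called Pirb (0.68, adjusted p = 0.0191) and Klra2 (0.66, adjusted p = 0.0296) higher in KO. It also called Psmb9, Nlrc5 and Fcgrt, making 5 genes over the 5 class I pathway lists. That fit called 2.33% of all genes higher.

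**Figure D4:**
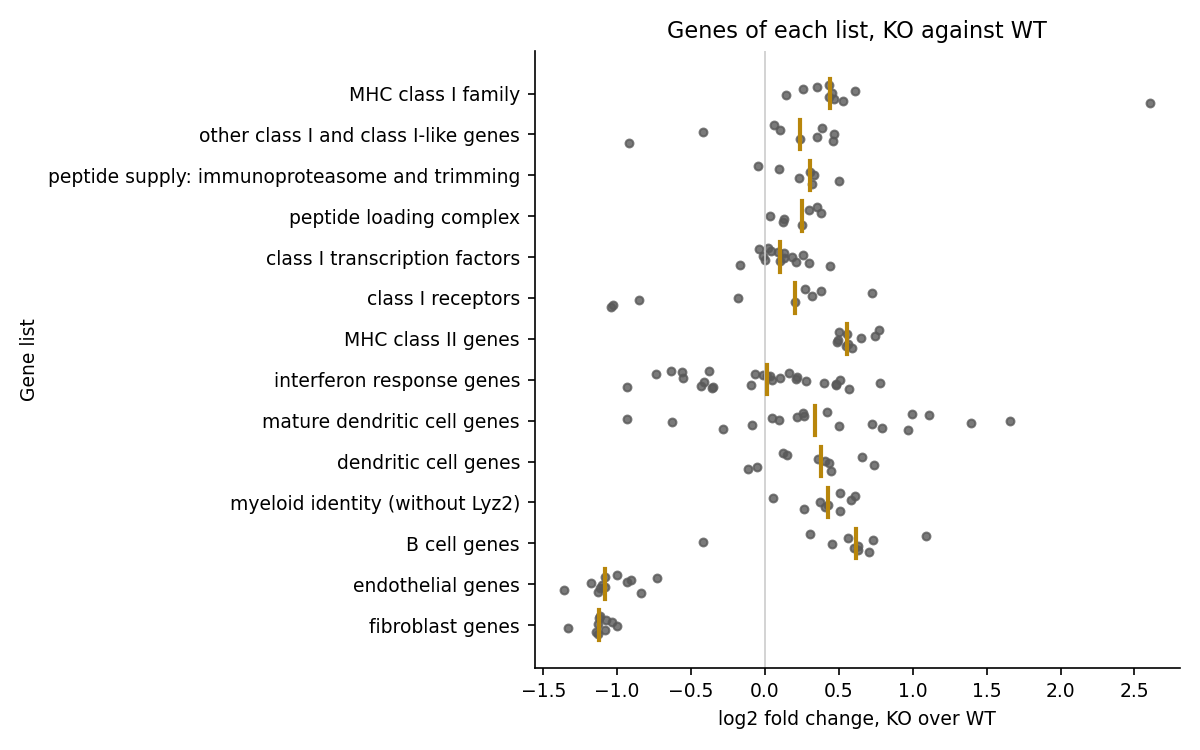
Log2 fold change of each tested gene, KO over WT, in the class I family and in 13 other lists, with 1 point a gene and a bar at the median. The class I family centres on 0.44 with H2-M2 far to the right, MHC class II genes on 0.56, interferon response genes on 0.01, and endothelial and fibroblast genes on -1.08 and -1.12.

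Interferon response genes gave no common direction. Of 27, 14 were positive and 13 negative, with a median of 0.01 and 0 called in edgeR, 7 of them at an unadjusted p under 0.05. The antiviral gene Mx1 was at 28.0 ± 0.50 CPM in KO and 18.8 ± 4.71 CPM in WT (log2 fold change 0.57, SE 0.18), and Zbp1 and Oas2 had 0.51 and 0.48. The interferon-induced GTPase gene Iigp1 had -0.74 (SE 0.23), with all KO pools below all WT pools. All 10 MHC class II genes were positive (median 0.56), 4 of them at an unadjusted p under 0.05 and 0 called in edgeR. The class II transactivator gene Ciita was at 176, 186 and 123 CPM in KO pools and 119, 82.5 and 82.1 CPM in WT pools (0.77, SE 0.21, edgeR adjusted p = 0.200). H2-Oa, H2-Ob and H2-DMb2, which steer class II peptide exchange, had 0.74, 0.56 and 0.65. DESeq2 called 2 class II genes higher (Ciita and H2-Oa) and edgeR with no filter 1 (Ciita). Without WT pool 1 the class II median was 0.91, and edgeR called 9 of the 10 higher. Over all genes, 1.16%, 0.479% and 2.33% were called higher in these fits, here and for the lists below.

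Markers of the cell types present also differed between the pools, in both directions. The 9 myeloid genes other than Lyz2 were all positive in log2 fold change (median 0.43), beside a median of 0.43 for the 9 class I members. Their mean log2 CPM was 9.01 to 9.08 in KO pools and 8.28 to 9.03 in WT pools, with WT pool 1 among the KO pools. Without WT pool 1, edgeR called 5 of the 9 higher, and the median of the list with Lyz2 was 0.70, against 0.42 with all pools. Fcgr1 and C1qa of macrophages had 0.59 (SE 0.19) and 0.61 (SE 0.25). Among B cell genes 9 of 10 had positive values (median 0.62), the light chain constant gene Igkc standing at 1.09 (SE 0.19), Blk at 0.73 and Cd22 at 0.56. The negative one was Ebf1 at -0.42 (SE 0.15). Without KO pool 2 the B cell median was 0.35. The mean log2 CPM of B cell genes was 6.55 to 7.15 in KO pools and 6.14 to 6.38 in WT pools. All 12 endothelial genes were negative (median -1.08), with every KO pool below every WT pool for each, and Kdr at -1.36, Emcn at -1.18, Flt1 at -1.12 and Ptprb at -1.08. Their mean log2 CPM was 6.54 to 6.93 in KO pools and 7.40 to 8.14 in WT pools. All 10 fibroblast genes were negative as well (median -1.12, and -0.65 without WT pool 3), among them Col3a1, Col1a1, Pdgfra and Pi16, with a mean log2 CPM of 6.59 to 7.04 in KO pools and 6.89 to 8.60 in WT pools. None of these markers was at 0 in all pools, and no gene of these lists but Lyz2 was called in edgeR with its filter and all 6 pools. The other fits called many of them. All 12 endothelial genes were called lower by DESeq2 and by edgeR with no filter, and 10 of 12 without WT pool 1. Of the 10 fibroblast genes, DESeq2 called 5 lower, edgeR with no filter 7 and edgeR without WT pool 1 all 10. Over all genes, 4.50%, 2.22% and 5.97% were called lower in these fits. Of the 10 B cell genes, DESeq2 and edgeR with no filter called 3 higher each, and edgeR without WT pool 1 called 2 higher and 1 lower (Ebf1). What part the cell mix had in the class I differences was not tested.

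T cell, natural killer cell and red cell markers had medians of -0.63, -0.31 and -3.77, and 0 were called in edgeR. The first of these rest on single pools, since without WT pool 2 the T cell median turned to 2.56, and the natural killer cell median was -0.57 without KO pool 2 and -0.0027 without KO pool 1. The T cell genes Cd8a, Cd8b1, Lck and Trac ranged widely in both genotypes, with Cd8a at 25.9, 3.42 and 42.5 CPM in KO pools and 1.27, 145 and 1.77 CPM in WT pools. The natural killer cell genes Klrb1c, Gzma, Prf1 and Eomes had -0.90, -0.31, -0.31 and -0.02. The red cell genes Alas2, Hbb-bt, Hba-a2 and Hbb-bs had -4.16, -3.91, -3.77 and -3.50, set by WT pool 1, since without that pool the red cell median was -1.01.

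Dendritic cell genes were set beside H2-M2 in 2 lists. Of 10 general dendritic cell genes, 8 were positive (median 0.38), with Clec9a at 0.74 (SE 0.25), Siglech at 0.66 (SE 0.24), Flt3 at 0.45 (SE 0.22) and Itgax at 0.44 (SE 0.17). The 2 negative genes were Zbtb46 at -0.12 (SE 0.18) and Xcr1, which was near 1 CPM, at -0.05 (SE 0.47). The median of the 10 genes was 0.60 without WT pool 1, where edgeR called 2 of the 10 higher. Of 18 genes of mature, migrating dendritic cells, 14 were positive (median 0.34, but 0.19 without KO pool 3 and 0.59 without WT pool 2), 8 had an unadjusted p under 0.05, and 7 had all KO pools above all WT pools and 1 below. None of these was called in edgeR with its filter and all 6 pools. DESeq2 called 4 higher (Ccr7, Il4i1, Apol7c and Mreg) and 1 lower (Cd200), and edgeR with no filter called the same 5 and Ccl22, higher. Without WT pool 1, edgeR called 2 higher and 1 lower. The mean log2 CPM of the 18 genes was 3.54, 3.47 and 4.03 in KO pools and 3.25, 3.21 and 3.36 in WT pools. The groups did not overlap and KO pool 3 was highest, as for H2-M2. That pool was also highest for H2-K1, H2-Q4, H2-Q6, H2-Q7, H2-T22, H2-T23 and B2m, but not for H2-M3 and H2-D1. A peak there is thus not particular to this list.

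The mature dendritic cell genes did not move as 1 block. Ccr7, the receptor that guides these cells to lymph nodes, was at 84.8, 92.1 and 115 CPM in KO pools and 56.6, 50.1 and 42.6 CPM in WT pools (log2 fold change 0.97, SE 0.16, edgeR adjusted p = 0.148). Apol7c was at 3.90, 3.30 and 8.62 CPM in KO pools and 1.66, 1.62 and 1.72 CPM in WT pools (1.66, SE 0.39, edgeR adjusted p = 0.185). Il4i1, an amino acid oxidase, was at 22.7, 20.7 and 31.1 CPM in KO pools and 14.9, 6.62 and 6.66 CPM in WT pools (1.39, SE 0.34, edgeR adjusted p = 0.190). These 3 genes peaked in KO pool 3, as did Mreg at 0.99 (SE 0.23). Of the 4 negative members of the list, the 3 lowest are named here, a choice made after their values were seen. Cd200 was at 28.4, 41.7 and 50.1 CPM in KO pools and 62.5, 63.0 and 104 CPM in WT pools (-0.93, SE 0.26), Socs2 had -0.63 (SE 0.22), and Fscn1, the actin bundler of mature dendritic cells, had -0.29 (SE 0.24).

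**Figure D5:**
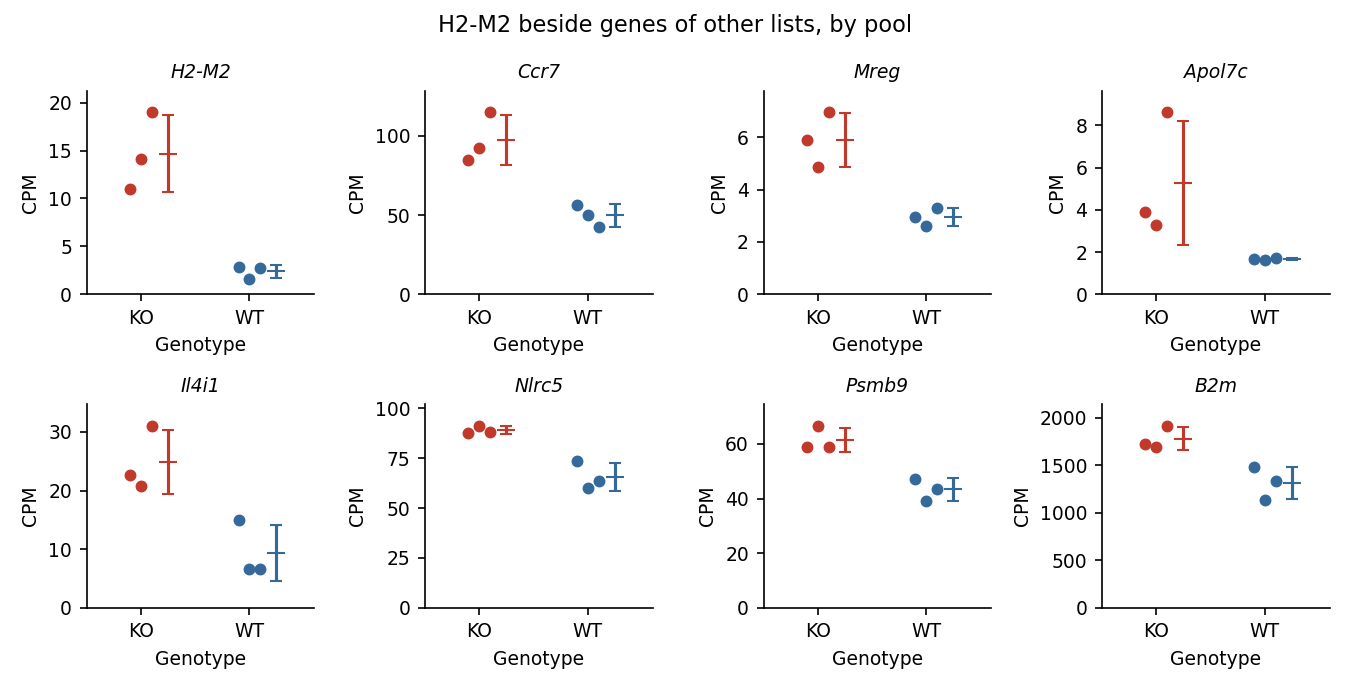
CPM of H2-M2, of 4 mature dendritic cell genes, of Nlrc5 and Psmb9, and of B2m, with 1 point a pool, KO left and WT right, and the mean with SD beside the points. H2-M2 has 10.96 to 19.0 CPM in KO pools and 1.62 to 2.81 CPM in WT pools, and the genotypes do not overlap for any gene shown. The genes other than H2-M2 and B2m were shown because they had the smallest p of their lists, which favours genes without overlap. Of all 18 mature dendritic cell genes, 7 had all KO pools above all WT pools and 1 had all below.

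The pattern of H2-M2 over the 6 pools was compared with that of 12910 genes of at least 1 CPM by Pearson's r of log2 CPM, as a description over 6 points that share their libraries. The 5 most similar were Txndc17 (0.996), Wdfy1 (0.989), Nup88 (0.987), Nudt17 (0.983) and Dynlt1b (0.982). With so many genes and 6 pools, high values arise for many of them. Dynlt1b was at 1.38, 1.89 and 2.72 CPM in KO pools and 0.50, 0.156 and 0.512 CPM in WT pools, and Wdfy1 at 26.1, 31.3 and 31.1 CPM in KO pools and 16.1, 13.9 and 14.8 CPM in WT pools. Nup88, at 59.2 ± 0.85 CPM in KO and 54.5 ± 0.94 CPM in WT, had the same pattern with a small amplitude. By deviations from the genotype means, the 5 most similar were Gtf2b, Tmco1, Usp20, Ybx1 and Pdrg1 (0.995 to 0.998), of which Gtf2b, Usp20 and Ybx1 had log2 fold changes of 0.05, -0.13 and 0.03. Within the family, r with H2-M2 over the 6 pools ran from 0.49 for H2-Q4 to 0.95 for B2m.

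Along chromosome 17, 4 genes within 500 kb of H2-M2 were tested, namely H2-M2, H2-M3, Zfp57 and Gabbr1. Zfp57 had a log2 fold change of -0.60 (SE 0.28) and Gabbr1, a subunit of the GABA-B receptor, -0.19 (SE 0.13), so the near neighbours were on both sides of 0. Within 4 Mb, 149 genes that are no members were tested, with a median of 0.14, 97 positive and 0 called in edgeR. In 18.8% of them all KO pools exceeded all WT pools. Over all genes tested the median was 0.0072, 7979 of 15707 were positive and 9.59% had all KO pools above. The 149 include genes of the class I pathway and class II lists above, such as Psmb9, Tap1 and H2-Oa. The highest of the 149 was complement factor Cfb at 1.84 (SE 0.43), and the complement genes C4b and C2 had 0.99 (SE 0.25) and 0.94 (SE 0.35). The complement gene C4a went the other way at -0.31 (SE 0.23), with all KO pools below all WT pools. Cfb, C2 and C4a were low, with means of 1.13, 2.65 and 2.62 CPM, and C4b had a mean of 668 CPM.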

How the data were processed

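RNA of Cd11b-enriched heart cells was sequenced from 6 pools, 3 KO and 3 WT, with NEBNext Ultra II Directional libraries, per the labels' protocols. The authors deposited raw counts per Ensembl gene as whole numbers, with no normalization. The submitters' processing notes list STAR, HTSeq, DESeq2 and GRCm38. The sources used here give no versions, annotation release or strand setting. Counters that name no gene were left out; reads aligned to several places made up 7.58% to 8.67% of all counted reads.

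Of 55487 identifiers, 55141 had a symbol. Genes were kept with filterByExpr (minimum count 10), scaled by TMM and compared with edgeR 4.0.16 in R 4.3.3 by the quasi-likelihood F test, two-sided, with genotype as the only term and Benjamini-Hochberg adjustment over 15707 genes at 0.05. The SE is the size of the log2 fold change over the square root of F. Nothing says that the pools of a genotype came from separate litters or days, so p-values speak for the spread of these pools. A pool is 1 replicate, and libraries of 1 genotype differed far beyond counting noise (chi-square over its degrees of freedom 38.0 to 84.1), so all were kept apart. Log2 CPM used a prior count of 2. Gene positions and exon lengths are from GENCODE M21 (GRCm38), and promoter sequences from RefSeq (GRCm38.p6), where all 10 members were matched by symbol.

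The members and the gene lists were chosen with earlier results of these data known. From each list, up to 4 genes with the smallest p and at least 1 CPM were named, beside the 5 genes most like H2-M2 by each measure and all tested genes within 500 kb. A few list genes that this rule would name are left out of the text. Some further genes, such as those of opposite sign and those within 4 Mb, were named outside this rule after their values were seen. Floors cover counting error only. The alternatives were DESeq2 1.42.0, limma-voom (limma 3.58.1), RLE, upper quartile or library size scaling, no filter, a mean CPM of at least 5, the replicate number as a block, and each library left out in turn. A term for Ddx3y RNA was added after seeing the data. Those for levels were the longest coding transcript, no length and unique windows, and those for H2-M2 against its family a prior count of 0.5 and B2m left out. The edgeR step was first checked on simulated counts. For 1 value, the smallest two-sided p that exact permutation of 6 pools allows between genotypes is 0.1. Figures were drawn with matplotlib 3.10.9.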

Additional observations from a re-analysis of the deposited data

How the results depend on the processing

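The log2 fold change of H2-M2 stayed between 2.38 (without KO replicate 3) and 2.79 (without KO replicate 1) over 15 alternatives, and its difference from the other 9 members, 2.16, stayed between 2.01 and 2.34 when 1 library was left out. Of the other 9, 8 kept a positive log2 fold change in all 15, and H2-Q4 was -0.022 without KO replicate 3 (edgeR adjusted p = 0.977). The count of the 9 that were called, 0 in edgeR as reported, was 1 (H2-Q7) under DESeq2 and with no expression filter, and 0 to 1 on leaving out a library, with 1 without WT replicate 1. Over the 5 class I pathway lists the count of called genes, 0, was 2 under DESeq2, and 0 to 5 on leaving out a library, with 5 without WT replicate 1. The loading complex median of 0.25 was 0.15 to 0.28 on leaving out a library, lowest without WT replicate 2, and the receptor median of 0.20 was -0.08 without WT replicate 3. Without WT replicate 2 the log2 fold changes of 7 of the 9 members were their lowest, at 0.24 to 0.47, and that of H2-Q4 was 0.0036. The cause of these shifts was not tested. Other scalings moved the median of all genes to between -0.04 and 0.02. The mature dendritic cell median of 0.34 was 0.08 over genes of at least 5 CPM on average.

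Over all genes tested, same-numbered pools did not deviate alike from their genotype means, with correlations of 0.10, -0.16 and 0.006. These correlations cannot show that the numbers are unpaired, and the pools numbered 1 shared Ddx3y RNA. With the replicate block the log2 fold change of H2-M2 was 2.61, 0 of the other 9 members were called (H2-Q7 0.62, adjusted p = 0.0987), and 0 genes of the 5 pathway lists. H2-M2 rests on 31 to 73 reads per WT pool.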
